A study of Mus musculus with 6 samples.

Results

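The genes described here encode 10 subunits of voltage-gated calcium channels: the pore-forming α1 subunits Cacna1a, Cacna1b, Cacna1c, Cacna1d, Cacna1g and Cacna1h, the β subunits Cacnb2 and Cacnb4, and the α2δ subunits Cacna2d1 and Cacna2d2. They were chosen by gene symbol, for their place in the calcium channels of the immature cochlea, from 24411 gene symbols in the deposited files. Earlier results of these data were known when they were chosen. All 10 had enough reads to be tested, as did 15303 genes in all. On mm10 the L-type genes lie at chr14:30039939-30491455 (Cacna1d) and chr6:118587240-119196418 (Cacna1c), both on the minus strand, and the nerve terminal genes at chr8:84388440-84640246 (Cacna1a, plus) and chr2:24603887-24763152 (Cacna1b, minus). The T-type genes lie at chr11:94408391-94474198 (Cacna1g) and chr17:25374285-25433783 (Cacna1h), both minus. The β genes are at chr2:14603088-14987908 (Cacnb2, plus) and chr2:52428320-52676831 (Cacnb4, minus), and the α2δ genes at chr5:15934691-16374511 (Cacna2d1) and chr9:107399612-107529343 (Cacna2d2), both plus; all spans are of the whole gene, exons and introns together.

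RNA from cochlear sensory epithelium was sequenced at postnatal day 9 (P9) in 3 pools of Kir2.1-OE mice and 3 pools of littermate controls, each pool holding 8 cochleae from 4 mice. Kir2.1-OE mice were heterozygous for Otof-rtTA, a doxycycline-dependent activator placed behind the Otof promoter of hair cells, and for tetO-Kir2.1-IRES-tau-lacZ, a transgene from which the activator drives the inward rectifier potassium channel Kir2.1 and a lacZ reporter. Controls carried Otof-rtTA without the Kir2.1 transgene, on the same C57BL/6N background. Both genotypes received doxycycline (DOX), dissolved in drinking water at 0.5 mg/ml, so the activator and the drug were common to both groups. The transgene raises potassium conductance, which holds the membrane negative and opposes spontaneous calcium action potentials in inner hair cells (IHCs), and the comparison asks what that does to RNA in the tissue. A pool, not a mouse, was the replicate. The dissected tissue also held outer hair cells, supporting cells, nerve fibres and glia.

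A voltage-gated calcium channel is built around an α1 subunit, which forms the pore and the voltage sensor and gives the channel its type. In the high-voltage-activated types, a β subunit binds inside the cell, brings the pore to the membrane and tunes its gating, and an extracellular α2δ subunit raises the number of channels at the surface and the current they carry. In IHCs the L-type channel CaV1.3, encoded by Cacna1d, carries most of the calcium current, which drives the action potentials of the immature cell and, later, transmitter release at the ribbon synapse. T-type channels open at more negative voltages and need no β or α2δ partner to form a working pore.

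The libraries held between 35430940 and 41205047 assigned reads, and a count of 0 allowed a gene up to 8.47e-06% of a library's reads, a limit that covers counting error only. Values below are normalized counts, that is, the estimated reads of a gene scaled by edgeR's TMM library sizes and not divided by length. Kcnj2, the gene of Kir2.1, was the check of the genotype, with 3612, 3813 and 2213 normalized counts in the Kir2.1-OE pools, in the order of their replicate numbers, and 236, 228 and 226 in the controls. All 3 Kir2.1-OE pools were thus above all 3 controls, and replicate 3 carried the least. A gene was called where its fold change exceeded 1.5 and its adjusted p-value lay under 0.05 (quasi-likelihood test of edgeR, Benjamini-Hochberg adjustment over all genes tested), which 15.5% of genes passed as higher and 5.08% as lower in Kir2.1-OE. Of the called genes 75.2% were higher, and 57.9% when libraries were scaled by their upper quartile, which moved the median over all genes by -0.089 on the log2 scale.

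In Kir2.1-OE, 7 of the 10 calcium channel genes were called higher (Cacna1a, Cacna1c, Cacna1d, Cacna1g, Cacna1h, Cacnb4 and Cacna2d2) and 0 lower. DESeq2's Wald test called 8 higher and 0 lower, and at an unadjusted p-value under 0.05 edgeR had 9 higher and 0 lower. The share of all genes at that unadjusted p-value was not computed, for these genes or for the lists below. The median log2 fold change of the 10 was 0.87, against 0.01 for all genes tested. All 3 Kir2.1-OE pools lay above all 3 controls for 8 of the 10, which was the case for 31.7% of all genes. In a stricter test on the same model, glmTreat, which asks whether a change goes beyond 0.6 on the log2 scale, Cacna1a, Cacna1c and Cacna1d passed, where 5.44% of all genes passed as higher. Fold changes in these libraries also moved with transcript length, and the channel genes have long transcripts. A further fit therefore carried an offset per gene in every library, computed from how that library's counts ran with transcript length and GC content. With these offsets 0 of the 10 were called, their median log2 fold change was 0.23, and 7 of 10 estimates stayed above 0; of all genes, 6.8% were called higher in that fit. At an unadjusted p-value under 0.05, that edgeR fit had Cacna1d, Cacnb2 and Cacnb4 higher and Cacna2d1 lower. The higher counts of the channel genes therefore cannot be told apart from the change shared by long transcripts, and both estimates are given for each gene.

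**Figure D1:**
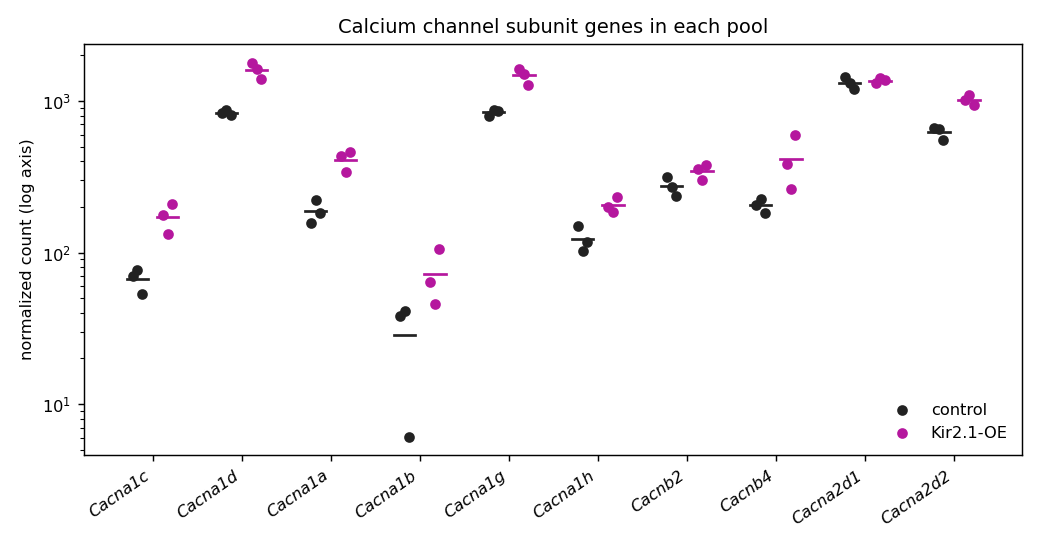
Normalized counts of the 10 calcium channel subunit genes in each pool, on a log axis; black points are the 3 controls, magenta points the 3 Kir2.1-OE pools and bars the group means. The groups overlap for Cacnb2 and Cacna2d1, and the control pool with 6.11 counts of Cacna1b stands far under its 2 companions.

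The L-type pores were both called higher. Cacna1d had 1787, 1631 and 1405 normalized counts in Kir2.1-OE and 828, 870 and 810 in the controls. The lowest Kir2.1-OE pool was well above the highest control, and the controls lay close together, at 836 ± 30.5 (SD, n = 3) against 1608 ± 192 (SD, n = 3). The change was 1.92-fold, a log2 fold change of 0.94 (SE 0.0971, 95% interval 0.73 to 1.16), with an adjusted p-value of 0.000168 in the edgeR quasi-likelihood test. With length and GC offsets the log2 fold change of Cacna1d was 0.21 (SE 0.0738, 95% interval 0.04 to 0.37) and the adjusted p-value 0.0591. Because the tissue was sequenced in bulk, more cells of a type and more RNA per cell cannot be told apart in any of these values. Exons of Chdh, on the other strand, overlap Cacna1d, and whether reads were counted by strand is not given in the sources used here.

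Cacna1c encodes CaV1.2, the L-type pore of heart, smooth muscle and many neurons. Its normalized counts were 176, 132 and 209 in the Kir2.1-OE pools and 70.2, 76.3 and 52.9 in the controls. Every Kir2.1-OE pool was above every control. The log2 fold change was 1.37 (SE 0.23) with an adjusted p-value of 0.00122 (edgeR quasi-likelihood test), and 0.42 (SE 0.227) with an adjusted p-value of 0.182 once the offsets were included. The log2 ratio of Cacna1d to Cacna1c was 3.24 ± 0.45 (SD, n = 3) in Kir2.1-OE and 3.67 ± 0.23 (SD, n = 3) in controls, and the groups overlapped (two-sided exact permutation test, p = 0.30).

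Sequence upstream of a start site is shown for Cacna1d, whose counts were higher, and for Cacna2d1, whose counts were not. Each line is the 250 bases before 1 RefSeq start on GRCm38.p6 in which no annotated exon lies, Cacna1d at chr14:30353487-30353736 on the minus strand and Cacna2d1 at chr5:15934441-15934690 on the plus strand. Capitals mark GC boxes (GGGCGG), E-boxes (CANNTG) and the core of the cAMP response element (TGACG), each searched on both strands, with overlapping matches run together.
Cacna1d: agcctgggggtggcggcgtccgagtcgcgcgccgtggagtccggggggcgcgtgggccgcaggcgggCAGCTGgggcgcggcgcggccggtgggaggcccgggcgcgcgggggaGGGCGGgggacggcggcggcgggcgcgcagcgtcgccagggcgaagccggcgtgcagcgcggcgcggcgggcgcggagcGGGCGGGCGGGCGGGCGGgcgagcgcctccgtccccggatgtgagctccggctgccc
Cacna2d1: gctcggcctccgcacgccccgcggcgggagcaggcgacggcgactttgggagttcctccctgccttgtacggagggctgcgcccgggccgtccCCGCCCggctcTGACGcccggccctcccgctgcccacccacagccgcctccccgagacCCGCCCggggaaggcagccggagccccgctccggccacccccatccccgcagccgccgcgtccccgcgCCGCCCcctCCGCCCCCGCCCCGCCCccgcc
The Cacna1d window had 5 GC boxes and 1 E-box at a GC content of 86.4%, and the Cacna2d1 window 6 GC boxes and 1 TGACG core at 82.4%. Over 32851 promoters of the same length, 32.7% held a GC box, 66.2% an E-box and 17.8% the TGACG core. Neither window held TATAAA or the SOX motif ACAATG, which 12.4% and 10.7% of promoters held. These are matches of letters and not sites of binding. RefSeq gives Cacna1d another start farther upstream, whose window lies within annotated exons. The promoter table had entries for 7 of the 10 genes, the others being Cacna1a, Cacna1g and Cacna1h.

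Among the pores of nerve terminals, Cacna1a encodes the P/Q-type channel that drives release at many fast synapses. Its normalized counts were 435, 338 and 457 in Kir2.1-OE and 157, 223 and 182 in controls. The 2 groups stood apart, with a wide gap between the lowest Kir2.1-OE pool and the highest control. The log2 fold change was 1.13 (SE 0.171, 95% interval 0.75 to 1.51) with an adjusted p-value of 0.000732 (edgeR quasi-likelihood test), and 0.25 (SE 0.17) with an adjusted p-value of 0.279 with the offsets. An antisense gene, Gm16183, overlaps exons of Cacna1a.

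Cacna1b, the N-type pore, had the fewest reads of the 10. It had 63.6, 46 and 106 normalized counts in Kir2.1-OE and 38.1, 40.9 and 6.11 in controls. The groups did not overlap, but control replicate 3 was far under the other controls and Kir2.1-OE replicate 3 far above its own group. Cacna1b was not called by the edgeR quasi-likelihood test, with a log2 fold change of 1.32 (SE 0.542, 95% interval 0.11 to 2.54) and an adjusted p-value of 0.0666, while DESeq2's Wald test gave an adjusted p-value of 0.0312. Its log2 fold change was 0.86 without control replicate 3, 0.92 without Kir2.1-OE replicate 3 and 0.52 with the offsets.

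The T-type pores were both called higher. Cacna1g, which encodes CaV3.1, had 1627, 1505 and 1281 normalized counts in Kir2.1-OE and 800, 869 and 855 in controls. The groups were well separated, and the order of the 3 Kir2.1-OE pools was that of Cacna1d, with replicate 1 highest and replicate 3 lowest. The log2 fold change of Cacna1g was 0.81 (SE 0.0983) with an adjusted p-value of 0.000272 (edgeR quasi-likelihood test), and -0.12 (SE 0.0815) with an adjusted p-value of 0.294 with the offsets, so its direction turned with them. Cacna1h, which encodes CaV3.2, had 201, 185 and 231 normalized counts in Kir2.1-OE and 150, 103 and 117 in controls. These groups also did not overlap, though by a smaller margin. The log2 fold change of Cacna1h was 0.74 (SE 0.185) with an adjusted p-value of 0.00887 (edgeR quasi-likelihood test), and -0.22 (SE 0.208) with an adjusted p-value of 0.437 with the offsets. Neither T-type gene passed the stricter glmTreat test. Exons of Tpsg1, on the other strand, overlap Cacna1h.

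The β subunits differed from each other in how far the groups stood apart. Cacnb2, whose product is the main β subunit of CaV1.3 channels in IHCs, had 354, 303 and 380 normalized counts in Kir2.1-OE and 317, 270 and 236 in controls. Control replicate 1 was above Kir2.1-OE replicate 2, so the groups overlapped. Cacnb2 was not called, with a log2 fold change of 0.33 (SE 0.147, 95% interval 0.00 to 0.66) and an adjusted p-value of 0.0863 (edgeR quasi-likelihood test), and the estimate was 0.33 with the offsets as well. Cacnb4, a β subunit of brain and nerve whose loss causes ataxia and seizures in mice, had 386, 261 and 598 normalized counts in Kir2.1-OE and 205, 225 and 183 in controls. Kir2.1-OE replicate 3 was far above replicate 2, and all 3 were above the controls. The log2 fold change of Cacnb4 was 1.02 (SE 0.261) with an adjusted p-value of 0.0097 (edgeR quasi-likelihood test). Without Kir2.1-OE replicate 3 it was 0.64 with an adjusted p-value of 0.0186, and with the offsets 0.68 (SE 0.254) with an adjusted p-value of 0.0659. The log2 ratio of Cacnb4 to Cacnb2 was 0.19 ± 0.44 (SD, n = 3) in Kir2.1-OE and -0.42 ± 0.19 (SD, n = 3) in controls, without overlap (two-sided exact permutation test, p = 0.10, the smallest that 3 against 3 pools allow), and the groups overlapped with the offsets.

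The α2δ subunits also parted. Cacna2d1 had 1310, 1407 and 1372 normalized counts in Kir2.1-OE and 1428, 1311 and 1199 in controls. The highest of the 6 values was a control and the groups overlapped, at 1363 ± 49.3 (SD, n = 3) against 1313 ± 114 (SD, n = 3). Cacna2d1 was not called, with a log2 fold change of 0.05 (SE 0.0833) and an adjusted p-value of 0.615 (edgeR quasi-likelihood test), and the 95% interval of -0.13 to 0.24 leaves out a 1.5-fold change in either direction. With upper quartile scaling its estimate was -0.04. With the offsets it was -0.23 (SE 0.0782, adjusted p-value 0.0496), under the fold threshold and in the other direction.

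Cacna2d2, the α2δ subunit best known in IHCs and in cerebellar Purkinje cells, had 1018, 1096 and 939 normalized counts in Kir2.1-OE and 661, 648 and 552 in controls. Its groups were separated by a wide gap. The log2 fold change was 0.71 (SE 0.101) with an adjusted p-value of 0.000532 (edgeR quasi-likelihood test), and 0.10 (SE 0.0937) with an adjusted p-value of 0.422 with the offsets. The log2 ratio of Cacna2d2 to Cacna2d1 was -0.42 ± 0.11 (SD, n = 3) in Kir2.1-OE and -1.08 ± 0.06 (SD, n = 3) in controls. This difference of 0.66, a 1.58-fold change of the ratio, was without overlap, as was the difference of 0.33 with the offsets (two-sided exact permutation test, p = 0.10 for both, the smallest possible).

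**Figure D2:**
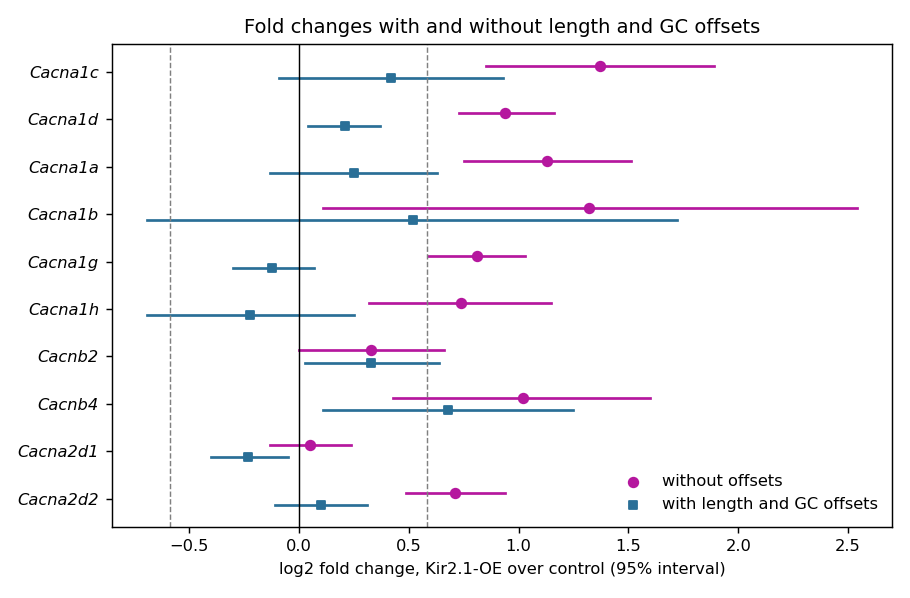
Log2 fold change of each calcium channel gene, Kir2.1-OE over control, with its 95% interval, without offsets (circles) and with length and GC offsets (squares); dashed lines mark 1.5-fold. With the offsets all 10 intervals move to the left or stay, that of Cacnb2 at 0.33, and those of Cacna1d, Cacnb2 and Cacnb4 remain above 0 before adjustment.

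Ratios between 2 genes were read within each library, 9 in all, with a smallest adjusted p-value of 0.15 (exact permutation tests with Benjamini-Hochberg adjustment). In tissue sequenced in bulk they compare the totals of 2 genes over all cells, and not the make-up of a channel. The log2 ratio of Cacna1d to Cacna2d1 was 0.45, 0.21 and 0.03 in Kir2.1-OE and -0.79, -0.59 and -0.57 in controls. Every Kir2.1-OE ratio was above every control ratio, a difference of 0.88 that was 0.43 with the offsets, without overlap in both (two-sided exact permutation test, p = 0.10, the smallest possible). For Cacna1d over Cacnb2 the difference was 0.60 without overlap, and -0.14 with overlap once the offsets were included. The ratio of the L-type Cacna1d to the T-type Cacna1g moved by 0.14, from -0.01 ± 0.06 (SD, n = 3) in controls to 0.13 ± 0.01 (SD, n = 3) in Kir2.1-OE, without overlap, and by 0.32 with the offsets, also without overlap.

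Set against genes of hair cells, the ratio of Cacna1d to Myo7a, a myosin of hair bundles, was lower by 0.23 on the log2 scale with overlap (two-sided exact permutation test, p = 0.20), and that to Otof, which encodes otoferlin, the calcium sensor of IHC release, was higher by 0.16 with overlap (two-sided exact permutation test, p = 0.40). Over Slc17a8, the vesicular glutamate transporter of IHCs, the log2 ratio was 0.00, -0.08 and -0.05 in Kir2.1-OE and -0.70, -0.83 and -1.13 in controls. That difference of 0.84 had no overlap, and it was 0.15 with overlap when the offsets were included.

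Levels can be compared between genes only per length, here as normalized counts per kb of the longest annotated transcript. In controls the order was Cacna2d1 at 177 ± 15.4, Cacna2d2 at 107 ± 10.3, Cacna1g at 100 ± 4.36, Cacna1d at 86.5 ± 3.16 and Cacnb2 at 54.5 ± 8.08 per kb (SD, n = 3). Below these came Cacnb4 at 24.9 ± 2.56, Cacna1a at 23.6 ± 4.2, Cacna1h at 15 ± 2.98, Cacna1c at 5.05 ± 0.922 and Cacna1b at 2.91 ± 1.99 per kb (SD, n = 3). The pools of Cacna2d2 and Cacna1g overlapped, as did those of Cacnb4 and Cacna1a and of Cacna1c and Cacna1b, so these neighbours were not separated beyond their spread. In Kir2.1-OE, on the same length, the highest means were those of the same 4 genes, with Cacna2d1 at 183 ± 6.63, Cacna1g at 175 ± 20.9, Cacna2d2 at 175 ± 13.5 and Cacna1d at 166 ± 19.9 per kb (SD, n = 3). The order depends on the length used: per kb of the median annotated transcript, the Kir2.1-OE means were 375 for Cacna2d1, 356 for Cacna1a, 283 for Cacna1d, 235 for Cacna2d2, 190 for Cacnb2 and 184 for Cacna1g.

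**Figure D3:**
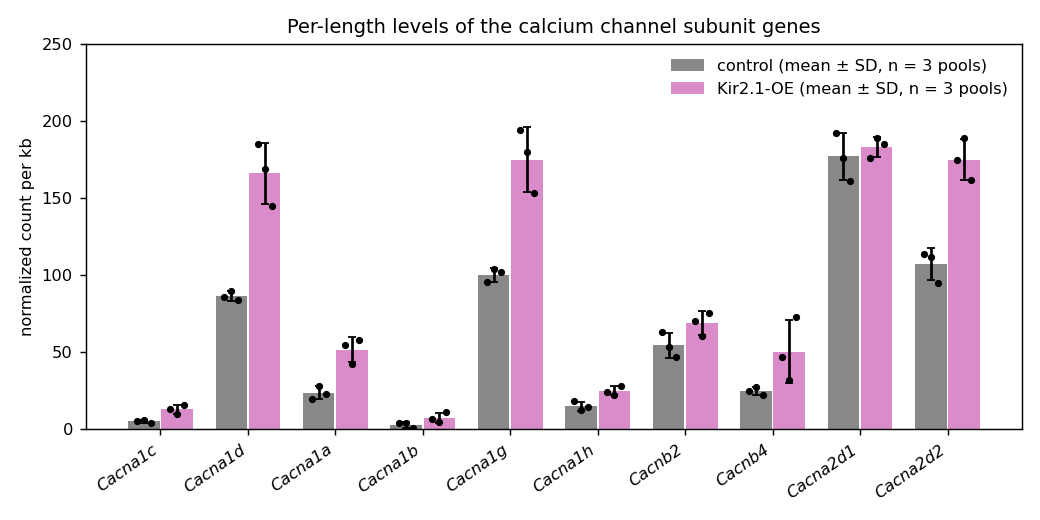
Normalized counts per kb of the longest annotated transcript; bars are means of 3 pools with the SD, points the pools, grey for controls and pink for Kir2.1-OE. On this length Cacna2d1, Cacna2d2, Cacna1g and Cacna1d are the highest in both groups, and Cacna1c reaches at most 15.9 per kb.

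As a share of the summed per-kb level of the 6 α1 genes, Cacna1g made up 43% ± 1.59 in controls and 39.9% ± 2.43 in Kir2.1-OE, and Cacna1d 37.1% ± 0.391 and 37.8% ± 2.14 (SD, n = 3). The shares of Cacna1g and of Cacna1d overlapped between the groups, as did those of Cacna1a and Cacna1h. Cacna1a made up 10.1% ± 1.43 in controls and 11.8% ± 2.06 in Kir2.1-OE, and Cacna1h 6.45% ± 1.46 and 5.73% ± 0.952 (SD, n = 3). These shares depend on the length used. With the median annotated transcript, which is 1153 bases for Cacna1a against 7926 for its longest, Cacna1a held 30.6%, Cacna1d 27.9% and Cacna1g 19.9% in controls.

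The trend with length ran across the whole table. Among genes whose longest transcript was under 2000 bases the median log2 fold change was -0.34 and 2.47% were called higher, and among those of 10000 bases or more it was 0.92 and 71% were called higher. Of the 10 channel genes 6 have transcripts of 8000 bases or more: Cacna1b, Cacna1d, Cacna1g, Cacna1h and Cacnb4 fall in the class from 8000 to under 10000 bases, where 58.8% of 507 genes were called higher and the median was 0.73, and Cacna1c in the longest class. Within its own class Cacna1d lay above 64.7% of genes, Cacna1g above 56% and Cacna1h above 50.7%. Cacna1a lay above 88.3% of the 1290 genes from 6000 to under 8000 bases and Cacna1b above 88.2% of its class, whereas Cacna2d1, in the same class as Cacna1a, lay above 17%. Cacna2d2, with a shorter transcript of 5807 bases, lay above 84.6% of its class.

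**Figure D4:**
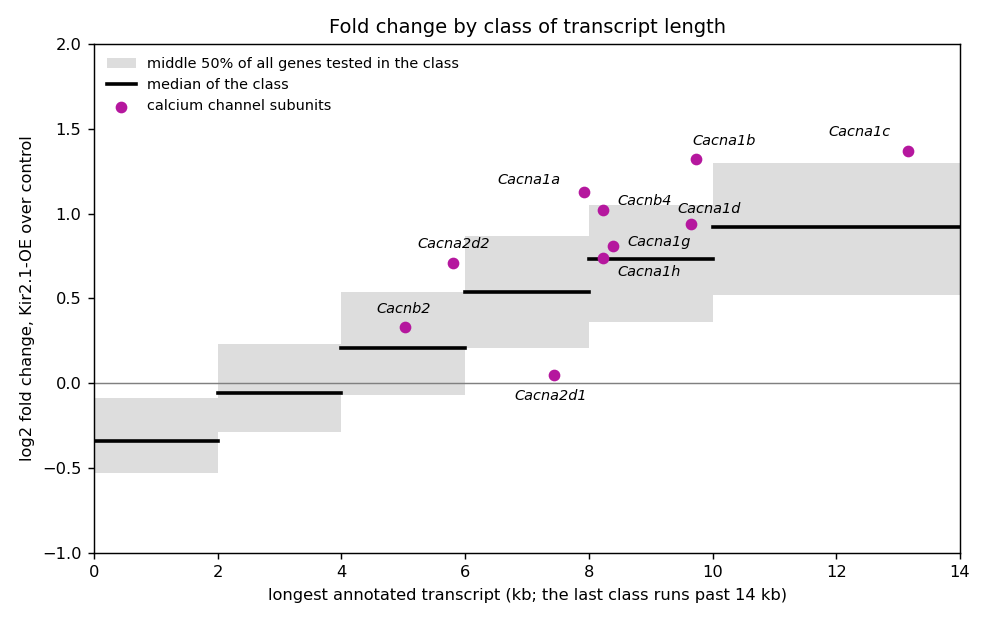
Log2 fold change of the calcium channel genes (points) against the length of the longest annotated transcript, beside the median (line) and the middle 50% (grey) of all genes tested in 6 length classes. The class medians climb from -0.34 to 0.92, Cacna1h sits on the median of its class and Cacna2d1 under the middle 50% of its own.

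Of 16 further genes that encode subunits of calcium channels, 11 could be tested, of which 7 were called higher and 0 lower by edgeR and by DESeq2 (9 and 0 at an unadjusted p-value under 0.05 in edgeR), with a median log2 fold change of 0.73. With the offsets 4 of them were still called and the median was 0.54. Of all genes tested 15.5% were called higher, and 6.8% with the offsets. Cacna1e, the R-type pore, had 398, 398 and 329 normalized counts in Kir2.1-OE and 124, 126 and 129 in controls. The controls were nearly equal and no Kir2.1-OE pool was under 329, for a log2 fold change of 1.57 (SE 0.136) with an adjusted p-value of 0.000129, and 0.59 (SE 0.131) with an adjusted p-value of 0.00982 with the offsets (edgeR quasi-likelihood test). The longest transcript of Cacna1e, 14921 bases, falls in the class where 71% of genes were called higher. Cacna1i, another T-type pore, was called at 1.10, with 0.03 under the offsets.

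Of the 5 γ genes tested, Cacng2, Cacng4 and Cacng5 were called with and without the offsets, and of these Cacng2 passed the stricter glmTreat test. Cacng2 encodes stargazin, which serves AMPA receptors more than calcium channels, and had 45.2, 21 and 40.2 normalized counts in Kir2.1-OE and 8.03, 7.27 and 3.05 in controls. Its counts were low but separate, and it had enough reads to be tested only through the Kir2.1-OE pools. The log2 fold change of Cacng2 was 2.50 (SE 0.464) with an adjusted p-value of 0.00196, and 2.08 with an adjusted p-value of 0.00951 with the offsets (edgeR quasi-likelihood test). With a control mean of 6.12, the size of this change is uncertain. Cacng4 and Cacng5, 2 more AMPA receptor partners, were called at log2 fold changes of 0.85 and 0.72, and at 0.70 and 0.61 with the offsets. Cacnb1 was called at 0.73 and Cacna2d4 at 1.14, and neither with the offsets. Cacnb3, another β subunit gene, had 2927 ± 90.1 normalized counts in Kir2.1-OE and 2488 ± 143 in controls (SD, n = 3), and its log2 fold change of 0.23 was under the threshold. Cacna2d3 and Cacng7, both at 0.34, and Cacng8 at 0.60 were not called. Cacna1f and Cacna1s, the L-type pores of retina and skeletal muscle, and Cacng1, Cacng3 and Cacng6 had too few reads to be tested.

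Proteins that bind or place the channels were read from a list of 21 genes, of which 20 were found by symbol and 18 tested. Of these 10 were called higher and 0 lower by edgeR (10 and 1, Calm2, at an unadjusted p-value under 0.05), and 0 lower by DESeq2, with a median log2 fold change of 1.08, and 8 were called higher with the offsets, at a median of 0.46. Among all genes 15.5% were called higher, and 6.8% with the offsets. The called partner genes were scaffolds of the presynaptic active zone (Rims1, Rims2, Rimbp2, Erc1, Erc2, Bsn and Pclo), the calcium-binding protein gene Cabp1 and the adaptor genes Stac and Stac2. Rims2, whose product tethers CaV1.3 at the IHC ribbon synapse, had 299, 293 and 316 normalized counts in Kir2.1-OE and 135, 127 and 122 in controls. Its groups were tight and far apart, with a log2 fold change of 1.24 (SE 0.131) and an adjusted p-value of 0.000179, and 1.00 with an adjusted p-value of 0.00145 with the offsets (edgeR quasi-likelihood test). Stac2 had 870, 566 and 1198 normalized counts in Kir2.1-OE and 263, 359 and 162 in controls. That gene varied widely within both groups and still did not overlap, with log2 fold changes of 1.74 and, with the offsets, 1.58.

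Bsn, which encodes the ribbon anchor bassoon, and Pclo, which encodes piccolo, each had a log2 fold change of 1.90, and of 0.50 and 0.86 with the offsets. Both fall in the longest class of transcripts, where 71% of genes were called higher. Bsn and Erc1 were the 2 genes whose call was lost with the offsets. Of the genes of calcium sensors that act on channel inactivation, Cabp1 was called higher, at a log2 fold change of 1.30 and at 1.12 with the offsets. Cabp2, needed for sustained calcium currents in IHCs, had a log2 fold change of -0.13 and was not called. Calm2 and Calm3 had -0.38 and -0.15, under the fold threshold, and Calm2 was 0.10 with the offsets. The genes of the small GTPases that inhibit β-bound channels, Gem, Rem1, Rem2 and Rrad, had log2 fold changes between -0.18 and 0.14 and were not called.

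**Figure D5:**
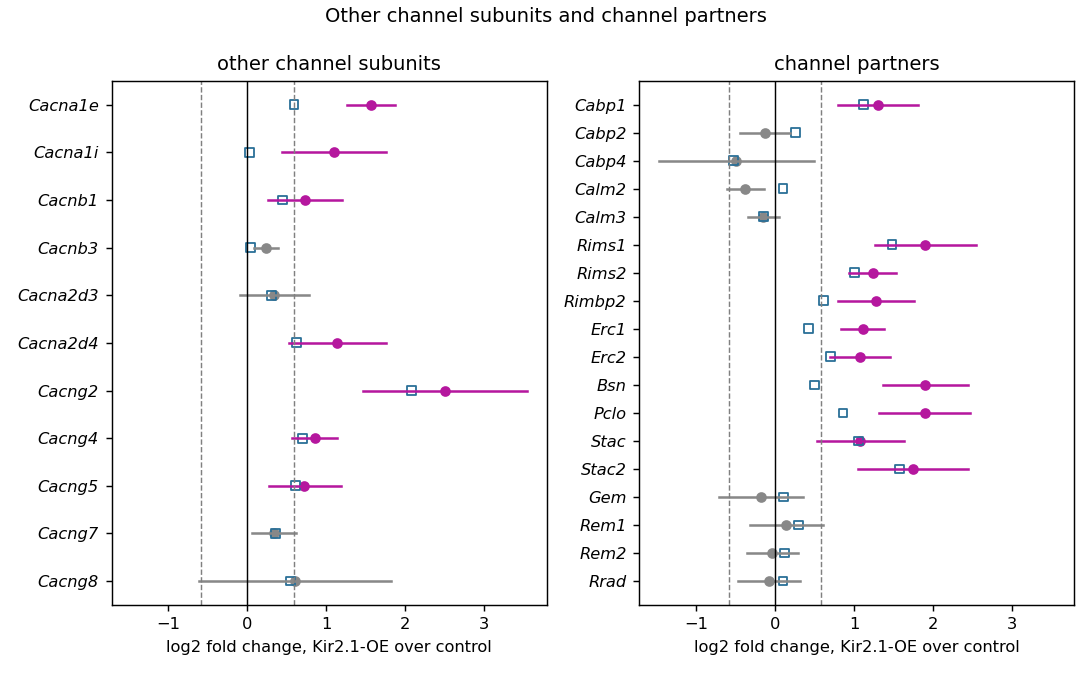
Log2 fold change, Kir2.1-OE over control, of the other channel subunit genes (left) and of channel partner genes (right), with the 95% interval; magenta points were called higher, grey points were not called, and open squares give the estimate with length and GC offsets. Cacng2, with few reads in controls, is farthest to the right, at 2.50, and Calm2 and Calm3 lie left of 0.

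Markers of the other cell types in the tissue were read in the same pools. Each count of called markers, here and below, stands beside 15.5% of all genes called higher and 5.08% lower. With the offsets 6.8% of all genes were called higher. Summed levels in CPM, counts scaled to a common library total, over 15 neuron markers were 1308, 967 and 1928 in Kir2.1-OE and between 680 and 905 in controls, with 8 of the 15 called higher and 1, Calb1, lower. No marker of that list was at 0, and with the offsets 8 were called higher as well. In 6 of the 10 channel genes (Cacna1a, Cacna1b, Cacna1c, Cacna1h, Cacnb2 and Cacnb4) the Kir2.1-OE pools had the same order as in the neuron markers, replicate 3 highest and replicate 2 lowest. That order was also found in 4 of the 11 other subunit genes tested, in 6 of the 18 partners (Bsn, Cabp1, Pclo, Rims1, Rims2 and Stac2) and in 16.6% of all genes tested. The part of nerve tissue in their counts was not tested. The 8 glial markers summed to between 10006 and 13154 CPM in Kir2.1-OE and 7100 to 9053 in controls, with 3 of 8 called higher.

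For Cacna1d and Cacna1g the order of pools was that of the 3 IHC markers, which summed to 271, 254 and 227 CPM in Kir2.1-OE and between 177 and 198 in controls. The share of all genes with this order was not counted, and some markers of other cells, such as Otoa of supporting cells, had it too. Of the IHC markers Otof was called higher, at a log2 fold change of 0.76 that was -0.03 with the offsets, and Slc17a8 and Tbx2 were not, at 0.09 and 0.32. The 14 markers shared by hair cells summed to between 892 and 1157 CPM in Kir2.1-OE and 813 to 877 in controls, with 3 called higher and 1 lower and a median log2 fold change of -0.02. The 5 outer hair cell markers overlapped, at 651 to 793 against 693 to 870 CPM, with 2 called higher. Markers of supporting cells were lower in sum, at 10568 to 10988 against 12732 to 14907 CPM, with 2 of 10 called higher and 1, Tectb, lower. Tectb was 40.1% of that sum. The median log2 fold change of the 10 was 0.06 and 6 were above 0, so the list as a whole was not lower. Of all genes tested 15.5% were called higher and 5.08% lower.

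The 8 smooth muscle and pericyte markers, cells in which Cacna1c is used, summed to between 254 and 262 CPM in Kir2.1-OE and 159 to 195 in controls, with Myh11 and Cspg4 called higher and Cnn1 close to 0. With the offsets their median log2 fold change fell from 0.49 to 0.05. That of Cspg4 was then 0.00, and that of Pdgfrb, 56.6% of the sum, went from 0.57 to 0.05. Myh11 stayed called, on control counts of 0, 7.27 and 9.16. It had enough reads to be tested only through the Kir2.1-OE pools, so its call adds little. Skeletal muscle markers summed to 3.97 to 8.09 CPM in Kir2.1-OE and 1.65 to 4.95 in controls, and 6 of the 8 were under a mean of 20 normalized counts. Of the 2 that could be tested Ryr1, a calcium release channel with 226, 214 and 103 normalized counts in Kir2.1-OE and 30.1, 28.2 and 42.8 in controls, was called higher, at a log2 fold change of 2.43 and at 1.04 with the offsets. Cartilage and bone markers summed to between 21549 and 25466 against 10366 to 14426 CPM with 2 of 8 called higher, fibrocyte markers overlapped with 2 of 8 called higher, and melanocyte markers had a median log2 fold change of -0.48, with Tyr and Dct called lower and Kcnj10 higher. The summed level of the melanocyte markers, 364 to 434 against 219 to 266 CPM, was 94.1% Kcnj10. Tyr had enough reads to be tested only through the controls. Erythrocyte markers were lower, at 289 to 367 against 477 to 1190 CPM with 3 of 5 called lower, and macrophage markers lay at 178 to 191 against 163 to 172 CPM with 0 of 6 called by edgeR (2 higher and 1 lower at an unadjusted p-value under 0.05). Against the 15.5% of all genes called higher and 5.08% lower, counts such as 2 of 8 do not set a short list apart. The part of each tissue in the channel counts was not tested.

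Genes whose pattern over the 6 libraries was closest to that of Cacna1d were Zbtb7a, Arhgap23 and Adcy9, with root mean square differences in centred log2 counts of 0.020, 0.038 and 0.038 among 13645 genes. Of the channel genes Cacna1g was nearest, in 76th place at 0.078. For Cacnb2 the closest were 4933409K07Rik, Opcml and Atp8a1, at 0.048, 0.057 and 0.062. With 6 libraries in 2 groups, such closeness mostly describes a similar fold change and a similar order of pools.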

How the data were processed

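Sensory epithelium of P9 cochleae was sequenced in 3 pools per genotype after poly(A) selection and random priming, in paired reads. The authors mapped reads to mm10 with the nf-core RNA pipeline at standard parameters and deposited expected counts per gene from Salmon, estimates that need not be whole, unscaled for length or depth; tool versions, gene annotation and strand setting are not given in the sources used here. Salmon can split reads between similar genes. Samples were grouped by the genotype in the labels. The name inside the file of control replicate 1 carried the number 4; the label number was used. Libraries within a group all differed by more than sampling noise. The labels do not say how the mice of different pools were related.

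Rounded expected counts entered edgeR 4.0.16, under R 4.3.3 (TMM factors 0.984 to 1.01, filterByExpr, quasi-likelihood test, Benjamini-Hochberg adjustment); intervals are 95%. Lengths, GC content and overlaps came from GENCODE vM21 (longest transcript); 23376 symbols matched directly, 693 through another symbol and 342 not. Offsets used a loess trend with a span of 0.4. Alternatives were DESeq2 1.42.0 size factors and Wald test, upper quartile scaling, no filter, glmTreat, a replicate block, the offsets with the block, each library left out, and median transcript lengths. On simulated data for this comparison, edgeR recovered 84.5% of 200 genes changed 2-fold and called 3 unchanged genes among 15220 tested. The simulated counts had no trend with transcript length or GC content, so they say nothing of calls that come with such a trend.

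The members, lists and alternatives were chosen with earlier results of these data known. Named were all 10 members, listed channel genes averaging at least 20 normalized counts, Kcnj2, marker lists by counts, and the 3 genes (mean of at least 50) nearest in pattern to Cacna1d and Cacnb2; marker genes named singly, and channel genes under 20 counts, were chosen after their values were seen. Of the partner list, 1 gene is not reported here, and the counts of that list leave it out.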

Additional observations from a re-analysis of the deposited data

How the results depend on the processing

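Of 140 estimates, the 10 channel genes under 14 alternatives, 117 kept their direction and side of the threshold. Another 14 kept their direction but lost the call, 1 gained the call and 8 turned direction. Among those that turned, the estimates of Cacna1g and Cacna1h, in both fits with offsets, lost the call as well. The 7 calls fell to 3 in the test against a change of 0.6 on the log2 scale, and to 0 with length and GC offsets, alone or with the replicate block. Leaving out any 1 library gave between 7 and 7 calls. Of the other subunits 2 were called in the threshold test, 4 with offsets, 3 with offsets and block, and 6 to 7 with a library left out; partners fell to 6 with offsets and block, and stayed at 10 to 10 with a library left out. Directions turned for Cacna1g (-0.12 with offsets, and -0.12 with the block added), Cacna1h (-0.22 and -0.22) and Cacna2d1 (-0.23 and -0.23, -0.04 with upper quartile scaling and -0.01 without control replicate 3, from a range of -0.01 to 0.12 with a library left out). The cause was not tested. The control α1 share of Cacna1d was 27.9% with the median transcript length. Over all genes, 2365 were called higher and 778 lower; the threshold test called 832 and 57, the offsets 1041 and 461, offsets with block 778 and 383, and upper quartile scaling 1897 and 1378. Same-numbered pools did not deviate together (correlations -0.11, -0.23 and -0.21). With 3 pools per group, centred on the group mean, this cannot settle whether the numbers pair pools. With the replicate block 7 channel genes were called and no call or direction among the 10 changed. Cacna1b had a control mean of 28.4 normalized counts and a coefficient of variation of 68.1% between control pools.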
